A study of Mus musculus with 12 samples.

Results

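The comparison described here is loss of Ets2 with Cre against wild type in cultured mouse aortic endothelial cells. Its members are 6 of the 12 columns of the deposited expression matrix, 3 titled Ets2 null (Ets2KO) and 3 titled wild type (WT), and they were chosen by title and genotype. All cells came from aortas of mice 4 weeks old and were grown in DMEM-F12 with fetal bovine serum, heparin and endothelial cell growth supplement before total RNA was taken with Trizol. WT cells were Ets1+/+; Ets2+/+ and carried the lentiviral-egfp vector. Ets2KO cells were Ets1+/+; Ets2fl/fl and carried the lentiviral-egfp-Cre vector, which is meant to delete the floxed gene in culture. No label gives the share of cells that the virus reached. The groups differ in the floxed allele and in Cre as well as in Ets2, and these cannot be told apart in this comparison. The other groups were Ets1-/-; Ets2fl/fl cells with lentiviral-egfp (Ets1KO) and Ets1-/-; Ets2fl/fl cells with lentiviral-egfp-Cre (DKO). The short descriptions of the Ets2 null samples name wild type Ets2, and the titles and genotypes were followed. Of the 20523 probe sets, the 18824 with 1 gene symbol were tested, and they cover 11015 genes. A level is a log2 value, a difference is Ets2KO minus WT on the log2 scale, and each gene is read at its brightest probe set unless another is named.

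Ets2 is a transcription factor of the ETS family, whose members bind DNA at a GGAA core. It is phosphorylated downstream of Ras and MAP kinase, and with its close relative Ets1 it is known for roles in endothelial survival and the growth of vessels. Many promoters hold sites that several ETS factors can bind.

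The arrays were compared before the genes. Array medians lay between 9.05 and 9.12 in the 6 arrays and between 8.28 and 8.30 in DKO. Within WT, replicates 1 and 2 correlated at r = 0.951 across probe sets, and replicate 3 correlated with them at 0.901 and 0.903. Within Ets2KO, replicates 1 and 2 correlated at 0.974, and replicate 3 correlated with them at 0.897 and 0.905. WT replicate 3 was nearest to Ets1KO replicate 3 (r = 0.926), while Ets2KO replicate 3 was nearest to Ets2KO replicate 2. The arrays also differed in transcripts of the sex chromosomes. Eif2s3y, a gene of the Y chromosome, read 9.37, 3.30 and 3.23 in WT and 9.30, 9.39 and 10.23 in Ets2KO. Xist, the RNA that silences the second X chromosome, read 7.26, 13.18 and 11.45 in WT and 7.44, 7.50 and 7.34 in Ets2KO. The pattern of WT replicate 1 was thus that of the Ets2KO arrays, and WT replicates 2 and 3 had the opposite pattern. Its part in the results was not tested beyond a fit with this pattern as a covariate, given with the limits of the counts.

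The targeted gene was read first. Ets2 read 9.72, 10.01 and 10.70 in WT and 9.63, 9.35 and 10.13 in Ets2KO, so the groups overlapped. The difference was -0.44 (SE 0.38, limma adjusted p = 0.541), between 10.14 ± 0.51 and 9.70 ± 0.40 (SD, n = 3 each). An exact two-sided permutation test gave p = 0.4, where the smallest possible with 3 against 3 arrays is 0.1. The dimmer Ets2 probe set differed by -0.18 (exact permutation p = 0.4). The sources used here do not place either probe set relative to the deleted exons, so these values do not settle whether the deletion took place. Ets1, which is intact in both groups, differed by -0.41 (SE 0.23, limma adjusted p = 0.338). Its other 3 probe sets differed by -0.54, -0.64 and -0.27, and in the first and second of these the groups did not overlap. Of the wider ETS family, 14 of 24 listed members were measured and none passed the test. Their median difference was -0.11, and the member with the largest difference was Etv4, at -1.57 (adjusted p = 0.114).

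Markers were read as a check of the label. Of 28 endothelial identity genes, 8 were measured and the others were not analysed here. None of the 8 passed the test, their groups overlapped without exception, and their median difference was -0.05, turning to 0.27 without WT replicate 1. Group means of 5 (Kdr, Mmrn2, Flt1, Egfl7 and Ramp2) lay below the median of 8.98 over all probe sets in both groups, and those of 3 (Cd34, Eng and Plvap) lay above it. Eng, a TGF-beta coreceptor of endothelial cells, read 10.54, 9.81 and 8.21 in WT and 9.91, 10.82 and 10.41 in Ets2KO. Kdr, the main VEGF receptor, read 7.33 to 7.60 in WT and 7.21 to 7.51 in Ets2KO. Of 13 fibroblast markers, 10 were measured, with a median difference of -0.08, which ranged from -0.55 without WT replicate 3 to 0.30 without Ets2KO replicate 1. Their mean relative to the array median ranged from 0.27 to 0.68 in WT and from 0.06 to 1.12 in Ets2KO. Group means of Dcn, Lum, Mfap5, Postn and Fbln1 lay below 8.98 in both groups. Those of Col1a1, Col1a2, Col3a1 and Pdgfra lay above it, and Dpt lay below it in WT only. Pdgfra, a receptor typical of fibroblasts, read 12.60, 10.53 and 13.31 in WT and 12.91, 13.06 and 13.23 in Ets2KO. The endothelial label thus rests on few measured markers here, most of them at low levels. Fewer cells of a type and less RNA per cell cannot be told apart in such bulk samples.

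Between Ets2KO and WT 56 genes passed the test, 29 higher and 27 lower in Ets2KO. These are 0.508% of the 11015 genes, with 0.263% higher and 0.245% lower. The fold changes ran from 1.66 to 28.0, and the median size of the difference was 1.49. In all 56 the groups did not overlap, a condition that 26.5% of all genes met, 12.4% higher and 14.1% lower. The genes that fell include enzymes and regulators of the low-oxygen response, glucose use and lipid synthesis and regulators of inflammatory transcription. The genes that rose include secreted proteins, enzymes of small-molecule metabolism and proteins of membrane traffic and the cytoskeleton. Of the 56 genes, 21 had several probe sets, and in 18 of these all probe sets lay on the same side of 0. Across probe sets, 109 passed the test (0.579%), 53 higher (0.282%) and 56 lower (0.297%), and 91 genes had at least 1 such probe set (0.826%). At adjusted p below 0.10 the test passed 3.77% of all genes, and 18.9% had an unadjusted p below 0.05.

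**Figure D1:**
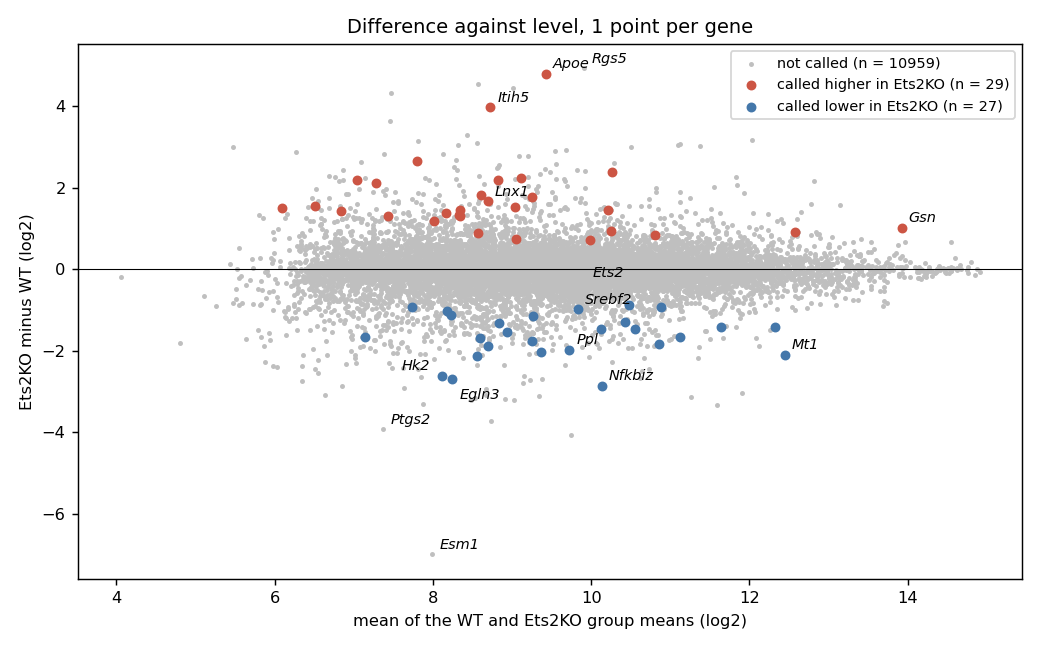
Difference between Ets2KO and WT (vertical axis, log2) against the mean of the group means (horizontal axis, log2), 1 point per gene at its brightest probe set. Red marks the 29 genes called higher and blue the 27 called lower at adjusted p below 0.05. Esm1 and Rgs5 lie farther from 0 than any called gene and were not called.

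The largest called rises were those of Apoe and Itih5, both secreted proteins. Apoe, which carries lipid in lipoproteins, read 8.81, 6.06 and 6.20 in WT and 10.999, 11.56 and 12.92 in Ets2KO. The difference was 4.80 (SE 0.71, limma adjusted p = 0.033), a fold of 28.0, and the fold was 51.9 without WT replicate 1. The lowest Ets2KO array lay above the highest WT array, which was WT replicate 1. Itih5, of a family that binds hyaluronan in the matrix, read 6.40, 5.53 and 8.28 in WT and 10.77, 10.37 and 11.01 in Ets2KO, a difference of 3.98 (SE 0.59, adjusted p = 0.033). Its fold of 15.8 became 27.0 without WT replicate 3 and 10.4 without WT replicate 2. Of 10 adipocyte markers 7 were measured. None passed the test and the groups overlapped in 5. All 7 lay above 0, where 52.4% of all genes lay below 0, with a median difference of 2.00. Their mean relative to the array median was -1.02, -1.66 and 1.49 in WT and 0.43, 2.04 and 2.65 in Ets2KO. Adipoq, the adipocyte hormone, read 3.98, 4.01 and 10.89 in WT and 7.15, 12.16 and 13.22 in Ets2KO. The part of adipocyte RNA in the rises, that of Apoe included, was not tested.

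Several of the other rises were in enzymes. Cdo1, which oxidises cysteine, read 8.62, 9.23 and 9.33 in WT and 11.36, 11.48 and 11.54 in Ets2KO. Its difference of 2.40 (SE 0.35, limma adjusted p = 0.033) came with a narrow spread in Ets2KO. Pgap4, an enzyme that builds the glycan of GPI anchors, read 6.44, 6.95 and 6.03 in WT and 9.14, 9.17 and 9.05 in Ets2KO, a difference of 2.65. Pcbd1, which recycles the pterin cofactor of aromatic amino acid hydroxylases, read 8.73, 7.98 and 7.26 in WT and 10.14, 10.76 and 9.82 in Ets2KO, a difference of 2.25. Acot11, a thioesterase that cleaves acyl-CoA, differed by 2.20, from 7.42 to 7.91 in WT to between 9.28 and 10.48 in Ets2KO. The adjusted p-values of Pgap4, Pcbd1 and Acot11 were 0.0399, 0.0399 and 0.033. For each of these enzymes the lowest Ets2KO array lay more than 1 log2 unit above the highest WT array.

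Other genes that rose have separate tasks. Gsn, which severs actin filaments, was abundant in both groups, at 13.36, 13.26 and 13.61 in WT and 14.51, 14.14 and 14.65 in Ets2KO. All 4 of its probe sets were higher, by 1.03 to 1.31, and the brightest had a limma adjusted p of 0.0457. Rac3, a small GTPase that controls actin, rose by 1.46 (adjusted p = 0.0461). Ap3m2, a subunit of the AP-3 complex that sorts cargo to lysosomes, read 7.65, 7.69 and 7.66 in WT and 9.21, 8.63 and 9.15 in Ets2KO. Both Ap3m2 probe sets were higher, by 1.33 and 1.31. Ccpg1, a receptor for the autophagy of endoplasmic reticulum, read 8.60, 8.30 and 8.22 in WT and 9.89, 9.77 and 10.77 in Ets2KO, a difference of 1.77 (adjusted p = 0.0457). Dnajb14, a co-chaperone of the endoplasmic reticulum, rose by 1.31 (adjusted p = 0.0449). Lnx1, a ubiquitin ligase of the Notch regulator Numb, had a small error: it read 8.01, 7.60 and 7.96 in WT and 9.37, 9.48 and 9.74 in Ets2KO, a difference of 1.67 (SE 0.15, adjusted p = 0.0121). It was the only called gene among 15 measured members of the Notch pathway, beside 0.263% of all genes called higher. Of the 15, 9 lay above 0, and of all genes 52.4% lay below 0. The median difference of the list was 0.10, and 0.22 without Ets2KO replicate 1. The receptor Notch1 read 9.71, 9.45 and 9.56 in WT and 10.48, 10.20 and 10.85 in Ets2KO, and its difference of 0.94 missed the threshold (adjusted p = 0.0617). The remaining rises named by rule were Kctd1 at 1.54, E430024I08Rik at 1.46 and Fam214a at 1.83.

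**Figure D2:**
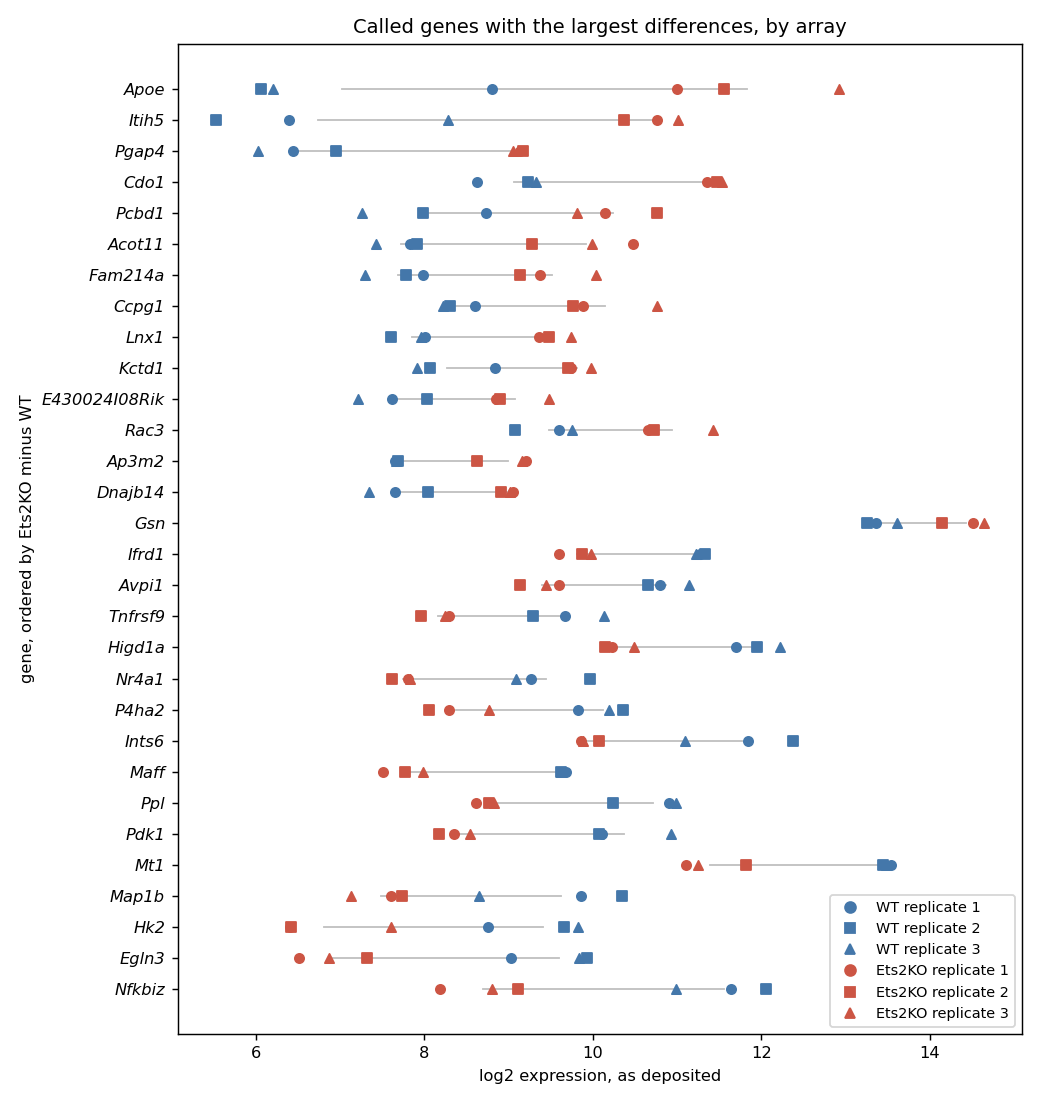
Level of the 15 largest called rises and the 15 largest called falls named by rule in each array (horizontal axis, log2 expression as deposited), with genes in rows ordered by their difference. Blue points are WT arrays, red points Ets2KO arrays, shapes are replicates and the grey line joins the group means. In every row all red points lie on one side of all blue points, and Apoe and Itih5 have the widest gaps between the means.

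The list with the most called falls was that of targets of the hypoxia-inducible factors (HIF) and enzymes of glycolysis. HIF is a transcription factor that is stabilised when oxygen is low and that raises glucose uptake and glycolysis. Of 35 listed genes 31 were measured, 5 passed the test as lower and none as higher, against 0.245% of all genes lower. In the list 29 of 31 lay below 0, where 52.4% of all genes did. The groups did not overlap in 19, all lower, beside 14.1% of all genes. The median difference was -0.82, beside -0.02 over all genes. Relative to the array median the mean of the list was 1.48, 1.67 and 1.84 in WT and 0.55, 0.73 and 0.96 in Ets2KO. Every Ets2KO array therefore lay below every WT array. The same held for the array means of cholesterol, fatty acid synthesis, immediate-early, MAP kinase feedback and DNA replication genes, among other lists. Leaving out 1 array at a time moved the median difference between -0.85 and -0.67.

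The 5 called members have separate tasks in this response. Hk2, the hexokinase that commits glucose to metabolism, read 8.76, 9.66 and 9.82 in WT and 6.40, 6.42 and 7.60 in Ets2KO, a difference of -2.61 (SE 0.43, limma adjusted p = 0.0405). Pdk1, the kinase that keeps pyruvate out of the mitochondrial cycle, read 10.11, 10.08 and 10.93 in WT and 8.35, 8.17 and 8.54 in Ets2KO. Its difference was -2.02 (SE 0.31, adjusted p = 0.0391), and its other probe sets differed by -2.76 and -1.52. Egln3, a prolyl hydroxylase that marks HIF for destruction and is itself a HIF target, read 9.03, 9.93 and 9.84 in WT and 6.51, 7.31 and 6.87 in Ets2KO, a difference of -2.70 (SE 0.41, adjusted p = 0.0351). P4ha2, which hydroxylates proline in collagen, read 9.82, 10.36 and 10.19 in WT and 8.29, 8.05 and 8.77 in Ets2KO, a difference of -1.75 (SE 0.23, adjusted p = 0.0255). In each of these 4 genes the Ets2KO arrays lay at least 1 log2 unit below the WT arrays. Higd1a, a mitochondrial protein induced by low oxygen, fell by 1.67 at its brightest probe set (adjusted p = 0.0453), but its other probe sets differed by 0.04 and -0.00. Glycolytic enzymes of high level differed less. Pgk1 differed by -0.90 (adjusted p = 0.0597) and Ldha by -0.83 (adjusted p = 0.0627), with groups that did not overlap. Hif1a, the oxygen-regulated subunit itself, read 10.28, 10.41 and 10.24 in WT and 9.25, 9.26 and 9.41 in Ets2KO at a dimmer probe set, a difference of -1.004 (adjusted p = 0.0255). At its brightest probe set Hif1a differed by -0.73 and was not called (adjusted p = 0.0873).

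The promoters of these genes were read for the core site of HIF. Shown are the 250 bases before the start of P4ha2, Hk2 and Egln3, as genes that fell and hold the site ACGTG or its reverse complement CACGT, in capitals. Ccpg1, which rose, is shown for a match to the ETS site CCGGAAG, read here on the other strand as CTTCCGG. Sequences are from RefSeq, build GRCm38.p6, 5′ to 3′ on the strand of the gene: P4ha2 at chr11:54100674-54100923 (plus strand), Hk2 at chr6:82774455-82774704 (minus), Egln3 at chr12:54203875-54204124 (minus) and Ccpg1 at chr9:72985254-72985503 (plus).
P4ha2: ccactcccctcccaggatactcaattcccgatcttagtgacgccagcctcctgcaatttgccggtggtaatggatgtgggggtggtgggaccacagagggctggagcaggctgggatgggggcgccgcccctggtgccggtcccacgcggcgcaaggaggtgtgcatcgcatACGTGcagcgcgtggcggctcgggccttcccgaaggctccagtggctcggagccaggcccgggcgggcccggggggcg
Hk2: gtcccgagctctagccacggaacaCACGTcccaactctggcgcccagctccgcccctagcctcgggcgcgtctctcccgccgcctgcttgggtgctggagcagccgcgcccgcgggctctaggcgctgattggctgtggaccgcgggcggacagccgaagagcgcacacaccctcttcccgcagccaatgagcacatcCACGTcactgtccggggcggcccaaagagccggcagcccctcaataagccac
Egln3: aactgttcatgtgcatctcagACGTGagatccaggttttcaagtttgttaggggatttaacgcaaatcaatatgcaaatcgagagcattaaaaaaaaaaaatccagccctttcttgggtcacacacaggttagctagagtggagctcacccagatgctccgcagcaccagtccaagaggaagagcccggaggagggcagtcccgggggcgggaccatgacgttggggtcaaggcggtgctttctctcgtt
Ccpg1: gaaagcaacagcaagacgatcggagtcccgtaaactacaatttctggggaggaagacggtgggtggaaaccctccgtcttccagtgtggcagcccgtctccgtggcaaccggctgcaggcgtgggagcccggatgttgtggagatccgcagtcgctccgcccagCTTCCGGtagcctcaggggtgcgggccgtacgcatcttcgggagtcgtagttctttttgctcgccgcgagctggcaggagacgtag
The match starts 78 bases before the start of P4ha2, 226 and 52 bases before that of Hk2, 229 bases before that of Egln3 and 86 bases before that of Ccpg1. Genes that fell also held the ETS site. Higd1a had an ETS match 225 bases before its start and no HIF match in these 250 bases. Map1b had an ETS match at 243 bases and a HIF match at 157. Shares were counted over 300 bases, which add the 50 after the start, on both strands, in the 8921 measured genes with a promoter sequence. The palindrome CACGTG counts as a match on each strand. The HIF core was found in 29.7% of all promoters, in 11 of 22 of the genes that fell (50%), in 6 of 24 of those that rose (25%) and in 22 of 29 of the HIF list (75.9%). The ETS site was found in 20.5% of all promoters, in 2 of 22 of the genes that fell (9.09%) and in 3 of 24 of those that rose (12.5%). The AP-1 site TGACTCA was in 4.55% of all promoters and in 1 of 22 and 0 of 24 of these groups, and the CRE site TGACGTC in 6.25% of all and in 1 of 22 and 0 of 24. A match is a run of letters and not a measured binding site.

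Srebf2, Scd2 and Acsl3, which act in sterol and fatty acid synthesis, also fell. Srebf2, the transcription factor that switches on cholesterol synthesis, read 10.19, 10.61 and 10.17 in WT and 9.35, 9.35 and 9.31 in Ets2KO. The difference was -0.99 (SE 0.15, limma adjusted p = 0.033), and its other probe set fell by 1.51 (adjusted p = 0.0305). All 22 measured genes of cholesterol synthesis and uptake, of 27 listed, lay below 0, beside 52.4% of all genes, and in 13 the groups did not overlap, all lower, beside 14.1% of all genes. Srebf2 was the only one called at its brightest probe set, beside 0.245% of all genes called lower. Stard4, a carrier of cholesterol between membranes, was called at a dimmer probe set only. The median difference of the list was -0.95, and its mean relative to the array median was 0.46, 1.12 and 0.71 in WT and -0.40, -0.35 and -0.01 in Ets2KO. Sqle, which makes squalene epoxide, read 10.27, 11.64 and 11.40 in WT and 9.58, 9.18 and 9.30 in Ets2KO, a difference of -1.75 (adjusted p = 0.0576). Among 16 measured genes of fatty acid synthesis, Scd2 and Acsl3 passed the test, both lower, beside 0.245% of all genes. The median difference of this list was -0.48. Scd2, a desaturase that makes monounsaturated fatty acids, read 12.65, 13.18 and 13.25 in WT and 11.42, 11.47 and 11.93 in Ets2KO, a difference of -1.42 (SE 0.24, adjusted p = 0.0453). Acsl3, which activates fatty acids, fell by 1.02 (adjusted p = 0.0457). Srebf1 and Fasn, central to fatty acid synthesis, differed by 0.17 and 0.15 and were not called. Of the 16, 13 lay below 0, beside 52.4% of all genes.

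Nfkbiz, Maff, Nr4a1 and Tnfrsf9, each from inflammatory or growth-factor signalling, also fell, while most members of the lists they belong to did not pass the test. Nfkbiz, a nuclear partner of NF-kappa-B that is needed for part of its targets, read 11.64, 12.05 and 10.99 in WT and 8.19, 9.11 and 8.81 in Ets2KO. Its difference of -2.86 (SE 0.34, limma adjusted p = 0.0255) was the largest among the called falls, and its other probe sets differed by -2.83 and -0.96. It was the only member called of 14 measured NF-kappa-B regulators, beside 0.245% of all genes called lower. The median difference of that list was -0.53, with 11 below 0, beside 52.4% of all genes. Maff, a small MAF factor, read 9.68, 9.62 and 9.62 in WT and 7.51, 7.76 and 7.99 in Ets2KO, a difference of -1.88 (SE 0.22, adjusted p = 0.0255). Nr4a1, an orphan nuclear receptor induced by growth factors, read 9.27, 9.97 and 9.09 in WT and 7.80, 7.62 and 7.83 in Ets2KO, a difference of -1.69 (adjusted p = 0.0255). Maff and Nr4a1 were the called members of 24 measured immediate-early genes, beside 0.245% of all genes called lower. Of the 24, 21 lay below 0, beside 52.4% of all genes, and the median difference of the list was -0.75. Tnfrsf9, the costimulatory receptor 4-1BB, read 9.67, 9.29 and 10.14 in WT and 8.29, 7.96 and 8.25 in Ets2KO, a difference of -1.53 (adjusted p = 0.0457), and a dimmer probe set differed by -2.87. The 12 measured feedback genes of MAP kinase held no call. Their median difference was -0.34, and -0.20 without Ets2KO replicate 3. Dusp16, a phosphatase of MAP kinases, came nearest at -1.85 (adjusted p = 0.0585).

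Chemokines, cytokines and adhesion genes did not separate the groups as a list. None of 14 measured passed the test, and the median difference was -1.33. The mean of the list relative to the array median was 2.27, 1.80 and -1.10 in WT and -0.59, 0.01 and -0.66 in Ets2KO. WT replicate 3 lay below all 3 Ets2KO arrays, and without it the median difference was -1.89. Without WT replicate 1 it was -0.72. Ptgs2, the inducible cyclooxygenase, read 9.99, 10.50 and 7.52 in WT and 5.88, 6.09 and 4.25 in Ets2KO, a difference of -3.93 that missed the threshold (limma adjusted p = 0.0572).

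**Figure D3:**
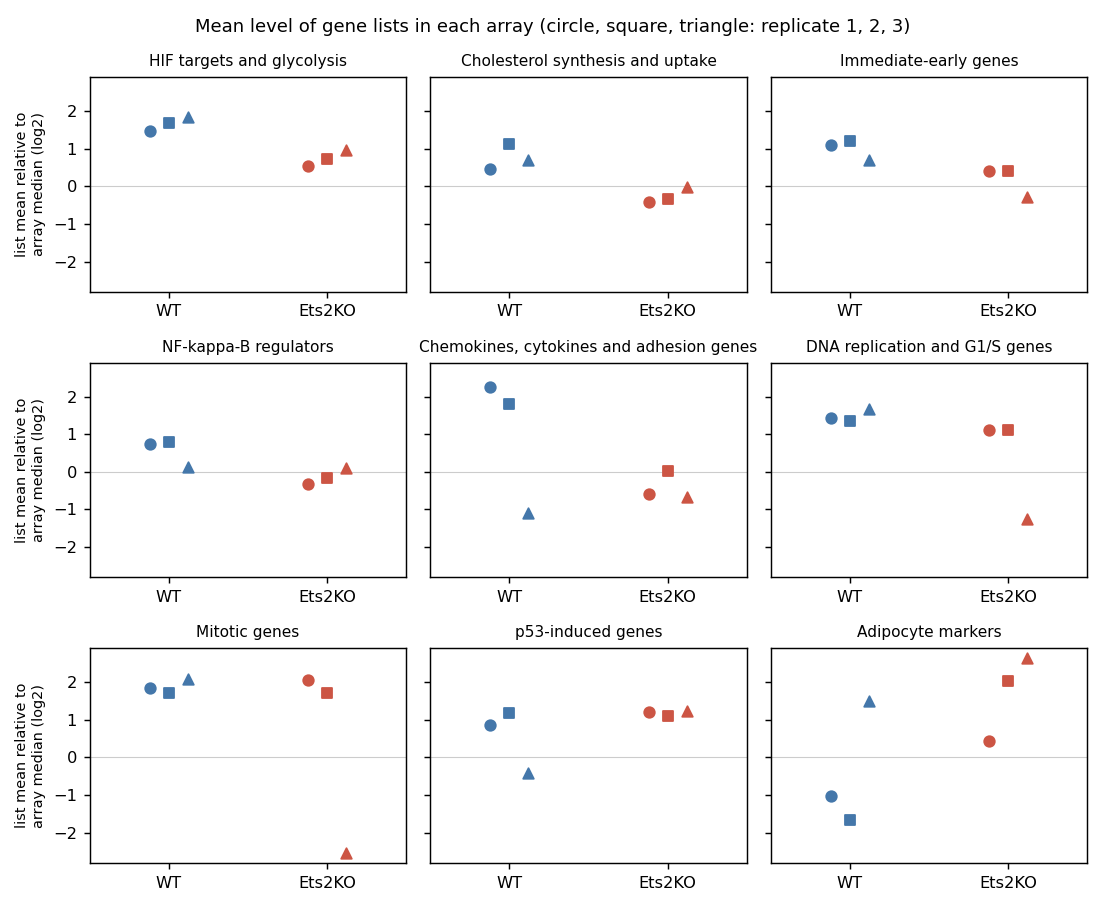
Mean level of 9 gene lists in each array, relative to the array median (vertical axis, log2), for the 3 WT arrays and the 3 Ets2KO arrays. Circles, squares and triangles are replicates 1, 2 and 3. The groups separate for HIF targets and cholesterol genes, though not for these lists alone. WT replicate 3 stands apart for chemokines and Ets2KO replicate 3 for mitotic genes.

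Other genes that fell act in adhesion, metal binding and RNA. Ppl, the desmosomal protein periplakin, read 10.91, 10.24 and 10.99 in WT and 8.62, 8.77 and 8.83 in Ets2KO, a difference of -1.98 (SE 0.20, limma adjusted p = 0.0121). Mt1, a metallothionein that binds zinc, read 13.54, 13.45 and 13.49 in WT and 11.11, 11.83 and 11.25 in Ets2KO, a difference of -2.09 (adjusted p = 0.0483), and its other probe set differed by -0.61. Map1b, which stabilises microtubules, fell by 2.13 (adjusted p = 0.0457). For Ppl and Mt1 the gap between the groups was wider than the range of either group. Ints6, a subunit of the Integrator complex, fell by 1.84 at its brightest probe set, while its 4 probe sets spanned -1.84 to 0.55. Avpi1 fell by 1.48 and Ifrd1, a transcriptional coregulator, by 1.47 (adjusted p = 0.0255 for both). Iron uptake genes were looked at after their values were seen. Slc11a2, an iron transporter, fell by 1.32 (adjusted p = 0.0434). Tfrc, the transferrin receptor, read 9.09, 9.14 and 9.86 in WT and 7.24, 7.41 and 7.49 in Ets2KO at a dimmer probe set, a difference of -1.98 (adjusted p = 0.0255), and differed by -1.92 at its brightest (adjusted p = 0.0572).

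Called genes outside the naming rule were chosen after their values were seen. Mamstr, a coactivator of MEF2 transcription factors, read 6.26, 6.06 and 6.33 in WT and 8.16, 8.03 and 8.84 in Ets2KO, a rise of 2.12 (SE 0.20, limma adjusted p = 0.0121) at a level below the median of all probe sets. Vkorc1, the enzyme that recycles vitamin K, was abundant, at 12.07, 12.22 and 12.04 in WT and 13.00, 12.84 and 13.27 in Ets2KO, a rise of 0.93. Both groups of Vkorc1 arrays had a narrow spread. Mapk6, the atypical MAP kinase ERK3, read 12.59, 12.09 and 12.36 in WT and 10.85, 10.88 and 11.07 in Ets2KO, a fall of 1.41 on the log2 scale (adjusted p = 0.0255), and its 3 probe sets differed by -2.36 to -1.29. Dcbld2, a membrane receptor related to neuropilins, read 10.87, 11.09 and 11.25 in WT and 9.78, 9.85 and 9.70 in Ets2KO, and its 3 probe sets differed by -1.97 to -1.29. Pgm2, which interconverts sugar phosphates, fell by 1.14 and Irx5, a homeobox factor, fell by 1.66. Of the 29 genes that rose, 8 lay below the median of all probe sets in both groups, as did 4 of the 27 that fell.

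In 35 further genes a dimmer probe set passed the test and the brightest did not, 20 higher and 15 lower. At the brightest probe set 17 of the 20 and 12 of the 15 lay on the same side of 0. Pvr, an adhesion receptor of the nectin family, was the member with the most called probe sets: 3 of them differed by -1.16, -1.38 and -1.36, and its brightest by -0.94 (limma adjusted p = 0.0554). Fgf7, a growth factor for epithelium, read 10.09, 10.26 and 10.30 in WT and 7.40, 8.39 and 7.77 in Ets2KO at its called probe set, a difference of -2.36. Ppp1r3c, which targets a phosphatase to glycogen, read 5.07, 5.54 and 6.34 in WT and 9.09, 7.99 and 10.36 in Ets2KO at its called probe set, a difference of 3.49. For these genes the brightest probe set gave the same direction. Probe sets of other genes did not give the same size: Lrp1, a receptor that binds Apoe among other ligands, rose by 1.69 at a dim probe set and differed by 0.57 at its brightest, and Vcp, an ATPase that extracts proteins for degradation, rose by 1.20 and differed by 0.11.

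Genes of DNA replication and mitosis gave a different picture. Of 30 measured replication genes all lay below 0, beside 52.4% of all genes, and none passed the test. The groups did not overlap in 19, all lower, beside 14.1% of all genes. The median difference was -1.04, and -0.42 without Ets2KO replicate 3. Their mean relative to the array median was 1.43, 1.35 and 1.66 in WT and 1.13, 1.10 and -1.25 in Ets2KO. The 26 measured mitotic genes had a median difference of -1.47 and no call, and the median was 0.00 without Ets2KO replicate 3. Their means were 1.85, 1.71 and 2.08 in WT and 2.05, 1.71 and -2.55 in Ets2KO. The low mitotic values thus belonged to a single array. The 23 measured genes induced by p53, a factor that responds to DNA damage, had a median difference of 0.51, and 0.13 without WT replicate 3. None of them passed the test. The 18 measured regulators of apoptosis had a median difference of 0.02, turning to -0.06 without WT replicate 3, and no call.

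The remaining lists held no called gene, and several medians turned on single arrays. Angiogenic and tip cell genes (12 measured) had a median difference of -0.64, and -0.16 without WT replicate 2. Interferon-stimulated genes (18) had a median of -0.35, between -0.61 without WT replicate 3 and -0.14 without WT replicate 2. Genes of the TGF-beta and BMP response (19) had a median of -0.19, between -0.47 without Ets2KO replicate 1 and 0.17 without WT replicate 2. ER stress and ATF4 targets (23) had a median of -0.15, between -0.24 without Ets2KO replicate 1 and -0.06 without Ets2KO replicate 3. NRF2 targets, which protect from oxidants (12), had a median of -0.08, between -0.17 without WT replicate 2 and 0.11 without Ets2KO replicate 3. Matrix and basement membrane genes (31) had a median of 0.01, between -0.15 without Ets2KO replicate 3 and 0.19 without Ets2KO replicate 1. Lysosomal genes (21) had a median of 0.19, and 0.02 without Ets2KO replicate 3. Matrix proteases with their inhibitors (13) had a median of 0.27, between -0.25 without WT replicate 3 and 0.49 without WT replicate 2. The sign of the median thus turned on a single array for TGF-beta, NRF2, matrix and protease genes. Within the matrix list single collagens lay far apart. Col1a1, a chain of fibrillar collagen, read 12.02, 13.33 and 11.93 in WT and 10.40, 9.17 and 11.22 in Ets2KO, a difference of -2.17 (limma adjusted p = 0.0917). Col18a1 and Col15a1, collagens of basement membrane zones, differed by 1.61 and 1.43, with groups that did not overlap. Macrophage and leukocyte markers (5) had a median of -0.20 and mesothelial and epithelial markers (5) of -0.21. Of the lymphatic markers 1 was measured, Pdpn, which differed by -3.09 (adjusted p = 0.206), by -1.73 without WT replicate 1 and by -4.72 without WT replicate 3.

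**Figure D4:**
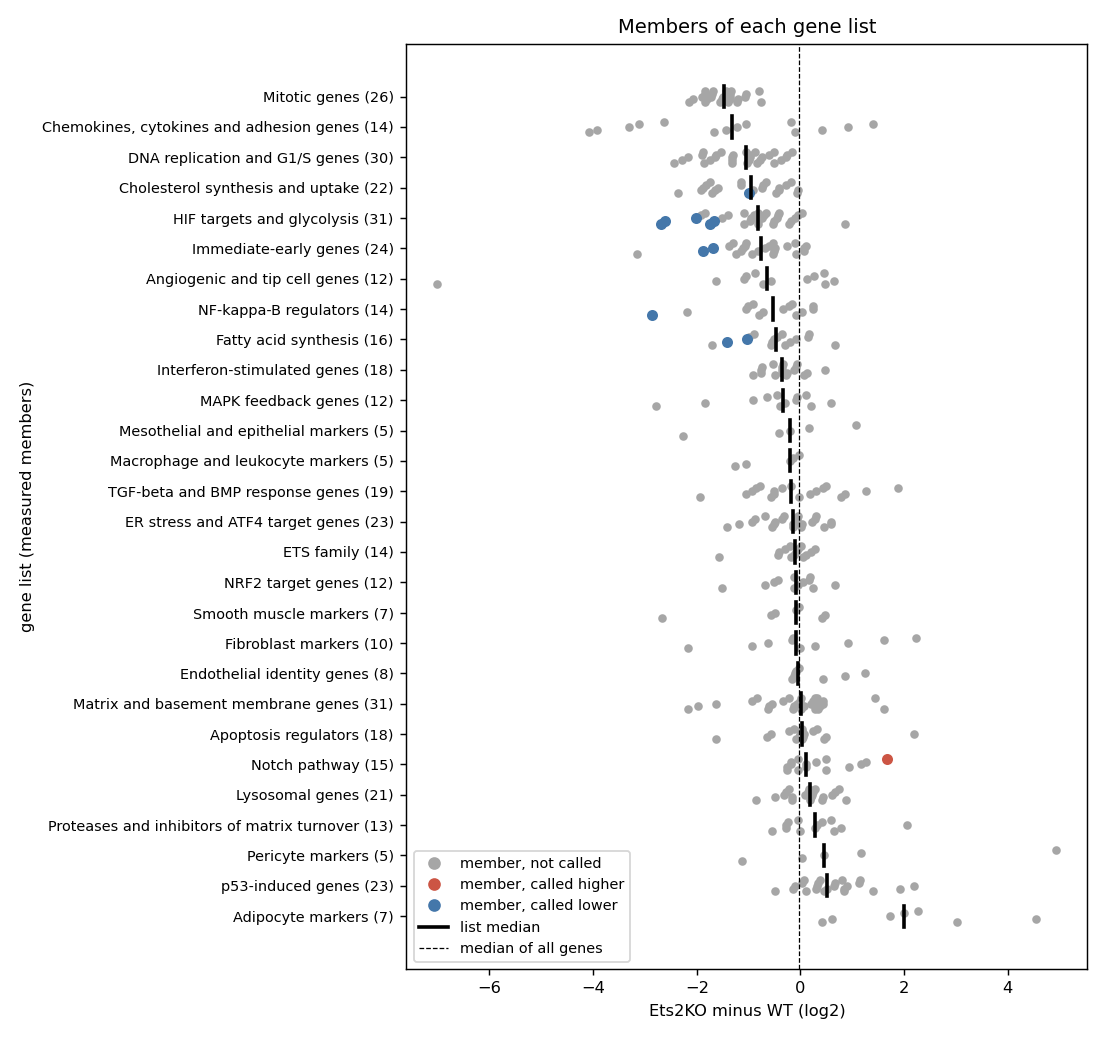
Difference between Ets2KO and WT (horizontal axis, log2) for each measured member of the gene lists, 1 list per row with its number of measured members. Blue and red points passed the test as lower and higher, grey points did not, black bars are list medians and the dashed line is the median of all genes. All 22 cholesterol genes lie below 0, HIF targets hold 5 of the blue points, and endothelial identity genes scatter around 0.

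Some of the widest differences did not pass the test. Esm1, a marker of sprouting endothelial cells, read 9.89, 12.58 and 12.02 in WT and 6.49, 3.49 and 3.49 in Ets2KO, a difference of -7.00 (SE 2.36, limma adjusted p = 0.158). Rgs5, a marker of pericytes, read 7.45, 7.90 and 6.97 in WT and 13.03, 10.18 and 13.93 in Ets2KO, a difference of 4.94 (adjusted p = 0.116). Ace, the angiotensin-converting enzyme of endothelium, read 10.60, 9.83 and 8.30 in WT and 12.84, 12.58 and 12.55 in Ets2KO, a difference of 3.08 (adjusted p = 0.0792). The groups did not overlap in any of these genes, which was a condition of the rule that named them. Of all genes 26.5% met this condition. Fst, which binds activin, differed by -3.73 (adjusted p = 0.0597). The 5 measured pericyte markers had a median difference of 0.46, which was -0.06 without WT replicate 1 and 0.96 without WT replicate 2. Their mean ranged from -0.99 to 0.41 in WT and from -0.19 to 1.43 in Ets2KO. Acta2, a contractile protein of smooth muscle, read 11.81, 12.70 and 11.34 in WT and 9.36, 9.35 and 9.12 in Ets2KO, a difference of -2.67 (adjusted p = 0.159), while the 7 measured smooth muscle markers had a median of -0.08, which ranged from -0.36 without Ets2KO replicate 1 to 0.12 without WT replicate 2.

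The arrays labelled DKO and Ets1KO pair the same vectors in cells labelled Ets1-/-; Ets2fl/fl, and they share no array with the comparison above. Since the arrays labelled DKO had lower medians, these differences were taken relative to array medians. The targeted genes do not follow the labels there. For Ets2 the sign depends on the median subtraction, and without it both differences given next would be negative. Ets2 differed by 0.77 and 0.65 at its probe sets between the arrays labelled DKO and Ets1KO, and neither passed the test (limma adjusted p = 0.174 and 0.151). Ets1, absent by label from both groups, was higher by 2.26 at its brightest probe set in the arrays labelled DKO, and its other 3 probe sets differed by 2.04, 0.93 and -0.65. In Ets1KO minus WT, Ets1 differed by -1.31 at its brightest probe set (limma adjusted p = 0.202), and its other probe sets were also lower. On the values of Ets1 the direction of DKO minus Ets1KO is in doubt. Of the 56 called genes, 31 had the same sign in it as between Ets2KO and WT, beside 52.9% of all genes, and 25 would with the direction turned. Srebf2 differed by -0.99 between Ets2KO and WT and by -1.88 between the arrays labelled DKO and Ets1KO, and Ccpg1 by 1.77 and 1.12. P4ha2 differed by -1.75 and 3.56, Egln3 by -2.70 and 3.54, and Hk2 by -2.61 and 2.88. As labelled these 3 lie on opposite sides. With the direction turned they would lie on the same side, but Ets1 would still be higher in a group labelled Ets1-/-. Apoe and Itih5, which rose in Ets2KO, differed by -0.25 and 0.26 there. The difference between both contrasts was tested as an interaction, with limma adjusted p = 8.17e-05, 0.000357 and 0.000788 for P4ha2, Egln3 and Hk2. It passed for 35 of the 56 genes and for 17.3% of all genes, and since the 56 were chosen on a term of the interaction nothing is read from the excess. In DKO minus Ets1KO 32.4% of all genes passed the test, and 13 of the 56 passed it with the same sign. The group labelled DKO holds 2 arrays with lower medians, and the part of this in the interactions was not tested.

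**Figure D5:**
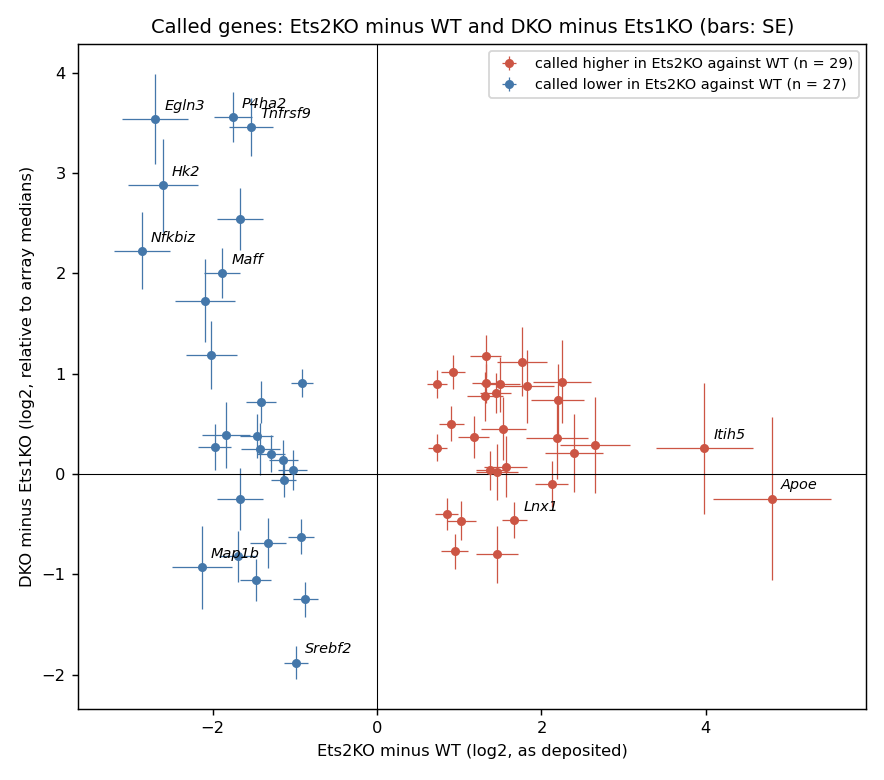
Ets2KO minus WT (horizontal axis, log2 as deposited) against DKO minus Ets1KO relative to array medians (vertical axis, log2) for the 56 called genes, with bars of 1 SE. Red genes rose and blue genes fell in Ets2KO. P4ha2, Egln3, Hk2 and Tnfrsf9 lie at the upper left, on opposite sides of 0 in the contrasts as labelled, and Srebf2 lies below 0 in both. With the direction of the vertical axis turned, the positions relative to its 0 line would be exchanged.

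The counts depended on which arrays were fitted. The test pooled the spread of all 4 groups, and with the 6 arrays alone limma called no gene, with 1717 at an unadjusted p below 0.05. With the sex-chromosome pattern as a covariate, 2 genes were higher and 1 lower, none of them among the 56. The pattern varied only within WT, so that fit in effect sets Ets2KO against WT replicate 1 alone. It cannot tell the pattern apart from that array. Without WT replicates 1, 2 and 3 the higher and lower calls were 17 and 15, 6 and 7, and 47 and 54. Without Ets1KO replicates 1, 2 and 3 they were 9 and 16, 7 and 16, and 8 and 9. Without Ets2KO replicate 1 limma called none, with 1864 at an unadjusted p below 0.05, and without replicates 2 and 3 the calls were 6 and 2, and 2 and 3. All 56 genes kept their direction in each of these fits. Their groups did not overlap, so neither leaving out an array nor the covariate fit could have turned a direction. Lnx1 and Ppl lost their call in 1 of the fits that leave out an array, the one without Ets2KO replicate 1. Most other called genes named above lost it more often, with 11 arrays left out in turn. Nfkbiz lost it in 2 of these fits, P4ha2 in 3, Egln3 in 5, Pdk1 in 6 and Apoe in 7. Itih5, Hk2, Higd1a, Srebf2 and Scd2 lost it in 8, and Acsl3 and Ccpg1 in 9.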

How the data were processed

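Expression was measured on Affymetrix mouse arrays. The deposited values are log2 expression per probe set and were used unchanged. The submitters' processing notes name RMA (no version stated). DKO replicate 3 equals the mean of DKO replicates 1 and 2 (tolerance 1e-05) in 20521 of 20523 probe sets and was left out, so 11 arrays were fitted. Probe sets were named from the platform annotation: 18824 carry 1 symbol, 549 several and 1150 are unlisted, and 18788 matched RefSeq by Entrez ID. Group means were fitted with limma 3.58.1 (lmFit, eBayes) in R 4.3.3, with 7 residual and 2.24 prior degrees of freedom. Adjustment over the 18824 probe sets followed Benjamini and Hochberg, and a gene was called at adjusted p below 0.05 at its probe set with the highest mean. The code was tested on simulated data. The interaction is DKO minus Ets1KO minus the difference between Ets2KO and WT, after array medians were subtracted. SE is limma's standard error. The titles speak of biological replicates and no label names separate animals. WT replicate 1 differed from WT replicates 2 and 3 in sex-chromosome transcripts, so the spread in WT is more than technical. For the other groups the spread behind the p-values may be technical only. The number of arrays limits the precision.

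Named by rule were Ets1, Ets2, the 15 largest called rises, the 15 largest called falls and the 10 largest uncalled differences in each direction. These rankings took only genes whose groups do not overlap and whose higher mean lies above the median of all probe sets. Also named were at most 4 called genes from each list, or else its 2 largest differences. Other genes were named after their values were seen. The members, the 29 gene lists and the tests were chosen with earlier results of these data known. Lists are described by counts and medians, with no test. Alternatives were other scalings, filters, array sets, covariates and probe set rules. Figures were drawn with matplotlib 3.10.9 in Python 3.11.15.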

Additional observations from a re-analysis of the deposited data

Results flagged for a closer look

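For each gene below, DKO minus Ets1KO and Ets2KO minus WT differed at limma adjusted p below 0.05, relative to array medians. The gap given is the first minus the second, as labelled. All genes but Ets1 were chosen because they were called in the second, which is a term of the gap. This choice favours wide gaps, and nothing is read from their number. In the arrays labelled DKO, Ets2 read 0.77 above Ets1KO at its brightest probe set and did not pass the test (limma adjusted p = 0.174). Without the subtraction of medians this difference would be negative. Ets1, absent by label from both groups, read 2.26 above Ets1KO at its brightest probe set. The direction of DKO minus Ets1KO, and with it the size and sign of every gap, is therefore in doubt. Among genes that fell in Ets2KO, Egln3 had a gap of 6.22, Hk2 of 5.46, P4ha2 of 5.29, Nfkbiz of 5.06, Tnfrsf9 of 4.97 and Higd1a of 4.19. Tnfrsf9, for example, differed by -1.53 between Ets2KO and WT and by 3.46 between the arrays labelled DKO and Ets1KO. Smaller gaps in the same direction were 3.86 for Maff, 3.80 for Mt1, 3.18 for Pdk1, 2.22 for Ppl, 2.21 for Ints6, 1.83 for Ifrd1, 1.65 for Scd2 and 1.04 for Acsl3. Srebf2 stood apart from these, with a gap of -0.92, and had a negative difference in both contrasts.

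Of genes that rose in Ets2KO, the gaps were -5.07 for Apoe, -3.74 for Itih5, -2.38 for Pgap4, -2.28 for Rac3, -2.21 for Cdo1, -2.15 for Lnx1, -1.51 for Gsn and -1.46 for E430024I08Rik. Ets1 itself had a gap of 2.64 at its brightest probe set, where it differed by -0.41 between Ets2KO and WT. The cause was not tested.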

How the results depend on the processing

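Beside the 29 genes higher and 27 lower, the counts were 191 and 167 with the 12 arrays, 608 and 623 with array weights, 222 and 193 at adjusted p below 0.10, 17 and 16 with brightest probe sets tested alone, and 8 and 19 with only genes above the median level. They were 2 and 1 with the sex-chromosome pattern as a covariate and 0 and 0 with the 6 arrays alone (limma, 1717 genes at an unadjusted p below 0.05). The pattern varied only within WT, so the covariate fit in effect sets Ets2KO against WT replicate 1 alone. Leaving out 1 array gave 0 to 47 higher and 0 to 54 lower. Without the DKO arrays the counts were 31 and 37, and 43 of the 56 calls remained. With array medians subtracted 55 remained, and 52 after quantile normalization. The Ets2 difference ranged from -0.66 to -0.16 when 1 array was left out and was not called in any of 24 alternatives.

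With the replicate number as a block limma called 0 genes in each direction, with 1878 at an unadjusted p below 0.05. The deviations of arrays with the same number correlated at -0.10, -0.15 and -0.04, so the numbers were not taken as pairing the samples.

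All 56 called genes kept their direction in every alternative. Their groups did not overlap, so neither leaving out an array nor the covariate fit could have turned a direction. Fits that change only the other groups leave the means of WT and Ets2KO unchanged. Among uncalled named genes, the sign turned for Notch3 with array weights (-0.10), for Eng (-0.16), Lox (0.58), Mmp3 (-0.91) and Tagln (0.0018) with the covariate, for Krt19 without WT replicate 1 (-0.27), and for Tagln without WT replicate 2 (0.21) and without Ets2KO replicate 3 (0.07). When 1 array was left out, Tagln ranged from -1.08 to 0.21 and Krt19 from -0.27 to 1.89. The cause was not tested for any of these.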
